A study of Mus musculus with 12 samples.

Results

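The genes described here encode potassium channel subunits, the pore-forming proteins and their accessory partners that carry potassium across cell membranes. They were taken by name, as protein-coding entries of the deposited expression table whose symbol is Kcn followed by family letters and a number. This gave 91 genes in 15 families, of 55862 entries in all. Their RNA was measured by sequencing in 12 libraries of C57BL/6 mouse brain cells, which fell into 4 groups of 3. The group AST held astrocytes at 0 days of incubation, the negative control of the study. The group A-iSC held astrocytes that had been turned into three-dimensional cell spheres over 5 days of incubation. The groups P56-NSC and P0-NSC held neural progenitor cells taken from brain, the positive controls, with no incubation time given. Apart from strain and tissue, the labels name no genotype, agent or cell line, and give no age other than the P56 and P0 of the group names, which they do not explain, and whether the 3 libraries of a group are separate cultures, separate animals or repeats of 1 preparation is not said. The spread that the p-values rest on is that among the libraries, and could be technical alone.

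Potassium channels set the resting potential of a cell and end its action potentials. In astrocytes, inward rectifiers and two-pore domain leak channels, together with the sodium pump, take up the potassium that neurons release. Voltage-gated (Kv) channels shape firing in neurons, and their accessory subunits alter how they open, close and reach the membrane. Nearly all pore-forming subunits share a short stretch, the signature of the selectivity filter, whose backbone oxygens line the narrowest part of the pore.

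The signature was found in the coding sequence of 76 of the 91 genes and not in the other 15, which are the accessory Kv beta, KChIP, Kcne and Kcnmb subunits. It was searched as 5 codons in frame: threonine or serine, then threonine, valine, isoleucine or leucine, then glycine, then tyrosine, phenylalanine or leucine, then glycine. The 14 two-pore domain genes held it at 2 places each, and the other 62 pore-forming genes held it once. The fourth codon encoded tyrosine at 60 of the 90 places, phenylalanine at 27 and leucine at 3. The 3 leucine codons all lay in the second pore of two-pore genes, namely Kcnk1, Kcnk6 and Kcnk7. The following stretches of 45 coding bases come from the GENCODE M21 transcript with the longest coding sequence of each gene (build GRCm38), 5′ to 3′ on the coding strand, with the 15 signature bases in capitals. They are shown because these genes differ between groups in the results that follow and span the kinds of filter in the set.

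Kcna6: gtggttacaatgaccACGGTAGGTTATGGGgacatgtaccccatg
Kcna1: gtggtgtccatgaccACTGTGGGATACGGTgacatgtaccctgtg
Kcna2: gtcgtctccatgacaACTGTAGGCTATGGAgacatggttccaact
Kcnf1: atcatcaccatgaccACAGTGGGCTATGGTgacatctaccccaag
Kcnh5: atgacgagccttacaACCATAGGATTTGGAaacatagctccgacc
Kcnj16: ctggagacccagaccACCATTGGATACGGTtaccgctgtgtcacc
Kcnj4: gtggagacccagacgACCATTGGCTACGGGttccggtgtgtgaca
Kcnk13, first pore: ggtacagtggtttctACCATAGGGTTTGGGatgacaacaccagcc
Kcnk13, second pore: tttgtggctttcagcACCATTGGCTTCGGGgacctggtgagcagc
Kcnk1, first pore: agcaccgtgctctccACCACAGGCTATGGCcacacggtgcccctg
Kcnk1, second pore: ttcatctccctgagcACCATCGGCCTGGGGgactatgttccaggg

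The signature of Kcna6 lies at chr6:126738647-126738661, that of Kcna1 at chr6:126642228-126642242 and that of Kcnf1 at chr12:17175061-17175075, all on the minus strand. The signature of Kcnj16 lies at chr11:111024904-111024918 and the second one of Kcnk13 at chr12:100061376-100061390, both on the plus strand. In each of the two-pore genes printed, the first signature is split by an intron. Kcnf1, whose product gives no current alone, carries a complete tyrosine signature like those of Kcna1, Kcna2 and Kcna6. Both signatures of Kcnk13 and that of Kcnh5 carry phenylalanine, whereas Kcnk1 pairs a tyrosine codon in the first pore with a leucine codon in the second.

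Levels are given as FPKM, fragments mapped to a gene, scaled for its length and for library size, in the order of libraries 1, 2 and 3 of a group, and means with their SD (n = 3). The whole reads recovered from the FPKM values numbered 17077780 to 24452419 per library, and a single read in a gene 1 kb long made 0.0343 to 0.0623 FPKM. Some libraries stood apart: in AST 2, A-iSC 1 and A-iSC 2 long genes lay lower relative to the group mean than short ones (Spearman correlation across genes -0.450 to -0.233), and in AST 1, AST 3 and A-iSC 3 they lay higher (0.328 to 0.385). The tested potassium channel genes had a median length of 4683.5 bases against 3913 for all genes tested. Of them, 55.2% were highest in A-iSC 3 within the A-iSC group, against 43.1% of all genes, and 67.2% were highest in P56-NSC 2 within its group, against 40.0%. Mitochondrial transcripts took 16.5% to 17.6% of reads in P56-NSC and 2.94% to 7.03% in the other libraries.

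The cell type markers went partly against the labels. The summed level of 8 oligodendrocyte lineage markers was 10420 to 11832 FPKM in P56-NSC and at most 64.6 in the other groups, with 1 of them, Mobp, at 0 in every AST library. Nes, the intermediate filament protein of neural progenitors, was at 3.48 to 3.91 FPKM in P56-NSC, 26.1 to 27.9 in P0-NSC, 64.4 to 73.7 in A-iSC and 183 to 209 in AST. The 10 neuronal markers summed to 839 to 1024 FPKM in P0-NSC, 220 to 271 in P56-NSC, 86.4 to 123 in AST and 41.1 to 65.6 in A-iSC. The 8 microglia and macrophage markers summed to 228 to 284 FPKM in AST, 2789 to 3688 in A-iSC, 827 to 911 in P56-NSC and 128 to 154 in P0-NSC. The 7 mural and fibroblast markers summed to 1869 to 2257 FPKM in AST, mostly Acta2, and to 33.4 to 66.8 in A-iSC. Red blood cell, choroid plexus and, in P0-NSC, endothelial markers were also present in the positive controls. The part of these other cells in the results below was not tested except where a value is given. In these bulk libraries, fewer cells of a type and less RNA per cell cannot be told apart.

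The 91 genes together stood at 96.1 ± 5.84 FPKM in AST, 99.5 ± 11.5 in A-iSC, 391 ± 23.0 in P56-NSC and 194 ± 7.52 in P0-NSC. Each library of P56-NSC (387, 416 and 371 FPKM) lay above each of P0-NSC (198, 198 and 185), and both lay above the 6 libraries of AST and A-iSC (89.5 to 113). AST and A-iSC overlapped in this sum, yet its make-up differed. Two-pore domain leak channels held 46.5% to 49.2% of the summed FPKM in the AST libraries and 24.7% to 28.9% in A-iSC, and Kv1 subunits held 2.09% to 2.50% in AST and 18.6% to 22.5% in A-iSC. KChIP subunits held 6.01% to 6.70% in AST and 14.2% to 16.6% in A-iSC, and electrically silent Kv subunits 10.9% to 11.7% and 2.72% to 3.31%. In P56-NSC the two-pore channels held 22.6% to 26.6%, KChIP subunits 15.4% to 16.1% and inward rectifiers 12.2% to 13.3%. The 76 pore-forming genes summed to 86.4 ± 5.58 FPKM in AST and 80.6 ± 9.30 in A-iSC, and the 15 accessory genes to 9.74 ± 0.309 and 19.0 ± 2.34. Single genes held most of these shifts. Kcnip3 went from a mean of 1.99 to 14.5 FPKM, of 15.1 for all KChIP genes in A-iSC. Kcna6 held 16.8 of 20.6 FPKM of Kv1 genes in A-iSC, and Kcnf1 9.94 of 11.0 of silent Kv genes in AST. Of 12 accessory genes tested, 2 were called higher in A-iSC, 3 lower and 7 neither (28.1% and 30.8% of all genes higher and lower).

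**Figure D1:**
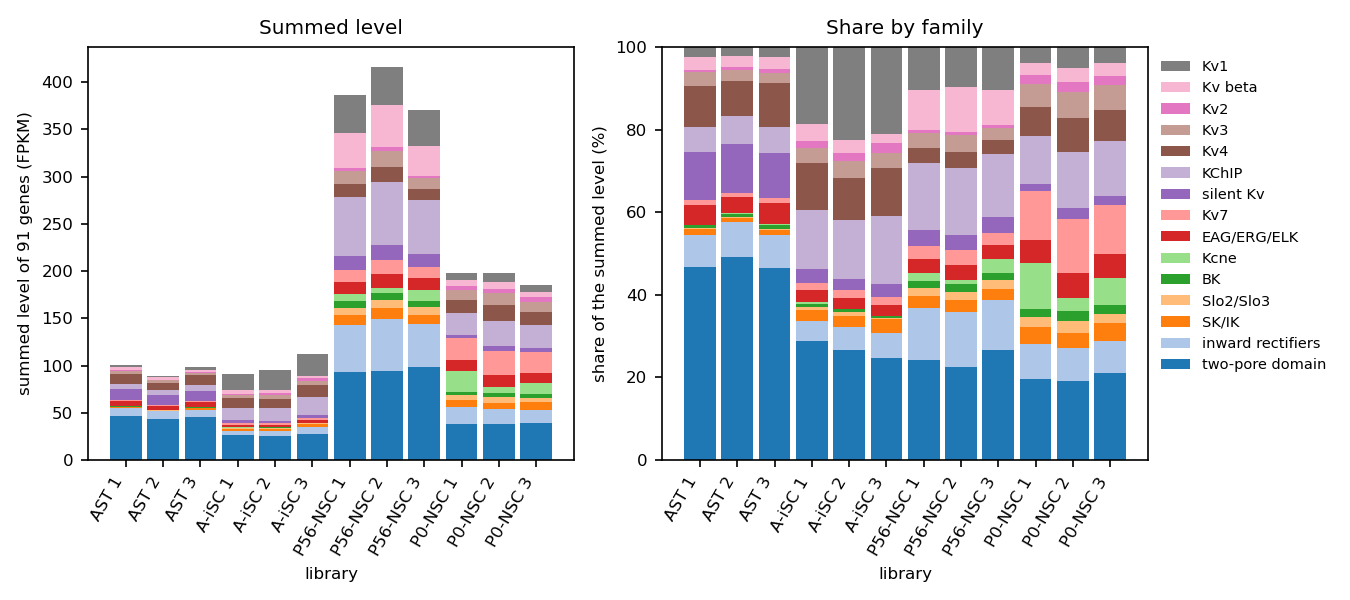
Summed FPKM of the 91 potassium channel genes in each of the 12 libraries, stacked by family (left panel, FPKM), and the share of each family in that sum (right panel, percent). The sum is 89.5 to 113 FPKM in AST and A-iSC, while the Kv1 share is at most 2.50% in AST and at least 18.6% in A-iSC.

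The leading gene differed between groups. Kcnk13, Kcnk2 and Kcnf1 were the highest in AST, with 20.1%, 11.6% and 10.3% of the summed group means. In A-iSC they were replaced at the top by Kcna6 (16.9%) and Kcnip3 (14.6%). Kcnk1 led in P56-NSC (46.9 ± 1.12 FPKM) and in P0-NSC (18.2 ± 1.61), with Kcnip3 next in both (45.5 ± 3.52 and 15.6 ± 1.77). All 3 libraries were at 1 FPKM or more for 16 genes in AST, 17 in A-iSC, 45 in P56-NSC and 39 in P0-NSC. Kcnj1, Kcnk15 and Kcnk16 were listed at 0 in all 12 libraries, and 6 genes, these included, never reached 0.1 FPKM. A gene was tested where 3 libraries or more reached 1 FPKM, as held for 58 of the 91 genes, and 33 were not tested. Of the 58, 13 reached 1 FPKM in a single group (7 in P56-NSC, 5 in P0-NSC and 1 in AST), so that they had to differ from the others, and the counts of calls that follow are a description.

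**Figure D2:**
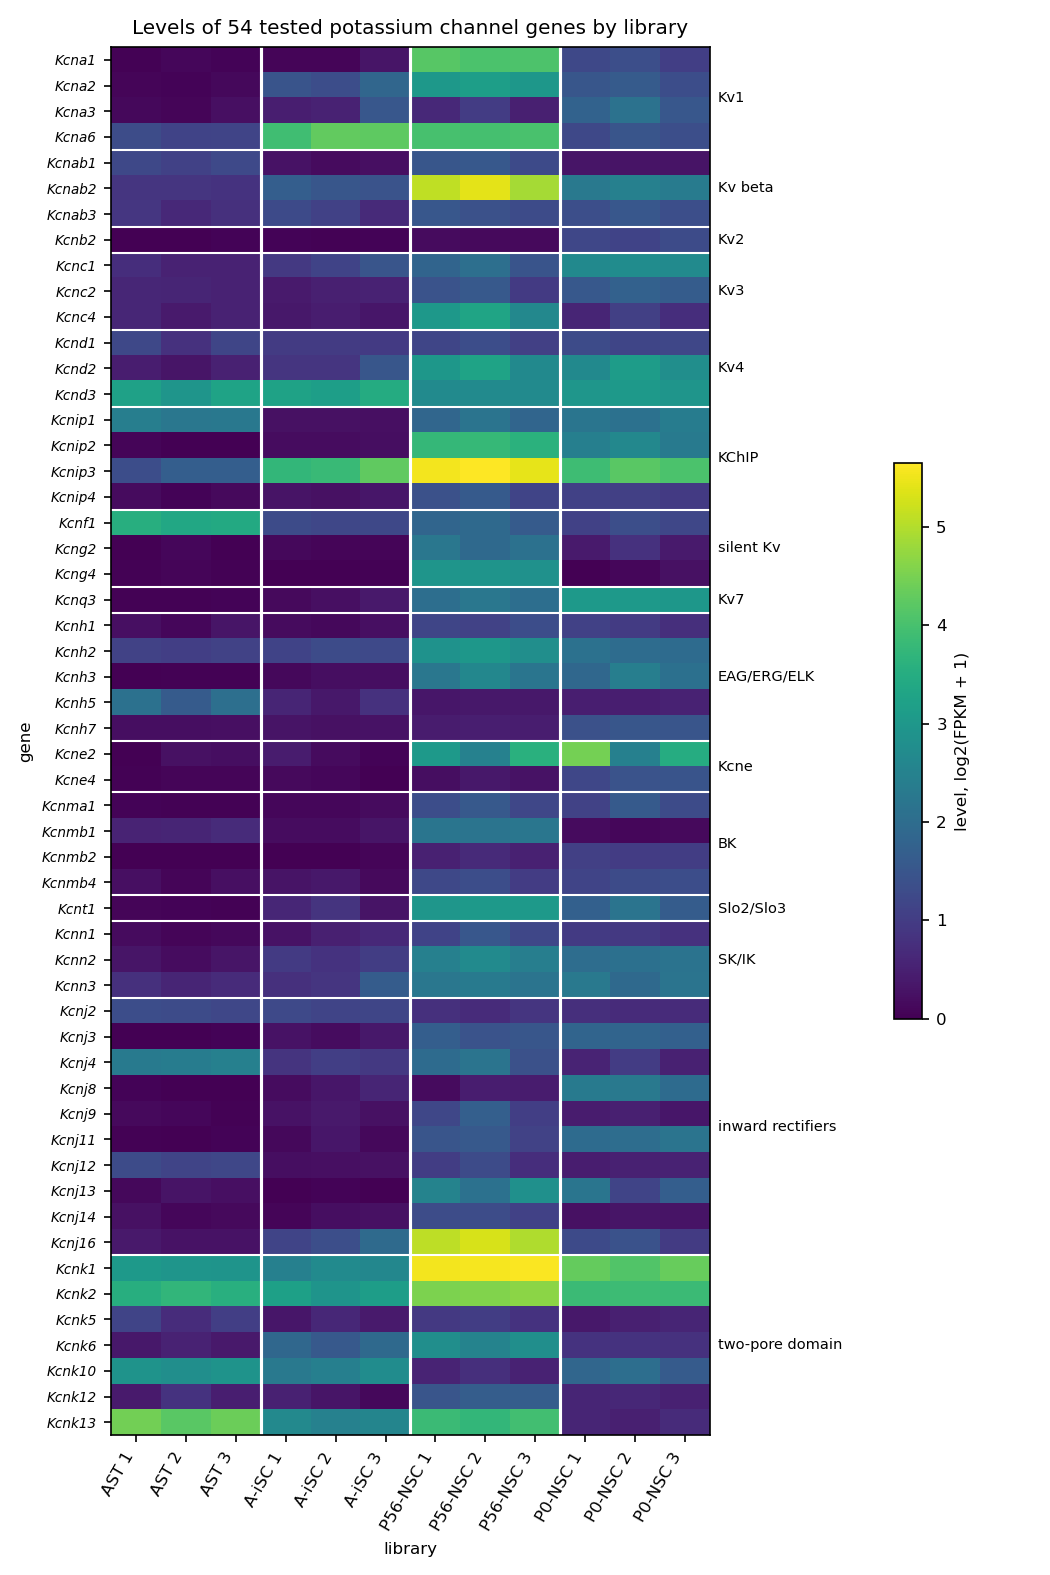
Level of 54 of the 58 tested potassium channel genes (rows, grouped by family) in the 12 libraries (columns, grouped), as log2(FPKM + 1). Brighter cells (green to yellow) are higher levels: Kcnk13 and Kcnf1 are bright in AST, Kcna6 in A-iSC and P56-NSC, and Kcnj16 and Kcna1 in P56-NSC.

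Over the 5 days in spheres (A-iSC against AST), voltage-gated and accessory subunits moved both ways, and the two-pore leak channels mostly fell. Of 58 genes, 17 were called higher in A-iSC, 12 lower and 29 neither (limma, adjusted p below 0.05). Among all 15747 genes tested, 28.1% passed the threshold upward and 30.8% downward (58.9% in all), so the share of 29.3% higher lay near that background and the share of 20.7% lower was below it. Changes of 2-fold or more on the log2(FPKM + 1) scale were called for 5 genes upward and 5 downward, against 9.15% and 9.61% of all genes. The median log2 change of the 58 was 0.10, that of all genes tested 0. The libraries of the groups did not overlap for any of the 29 called genes. With 3 libraries per group a call makes this likely, and the share among all called genes was not counted. With quantile normalization the counts were 10 higher and 14 lower, with scaling by total reads 22 and 9, and without AST 2 and A-iSC 3 together 11 and 11.

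Against AST, both positive controls had more of most potassium channel genes tested. Some, among them Kcna1, Kcnip2, Kcnq3, Kcnh3 and Kcne2, reached 1 FPKM in the positive controls alone. The high controls brought these past the filter, so the counts and medians below are a description. In P56-NSC 45 of the 58 were called higher, 8 lower and 5 neither, where 37.1% and 37% of all genes were called higher and lower (74.1% in all). In P0-NSC 40 were called higher, 10 lower and 8 neither, where 35.9% and 38.3% of all genes were (74.2% in all). The median log2 difference of the 58 was 1.20 in P56-NSC and 0.98 in P0-NSC, and over all genes tested -0.00 and -0.04. Differences of 2-fold or more upward were called for 34 and 29 genes, against 20.3% and 18.4% of all genes. The families were not alike. All 3 tested SK genes and both tested Kcne genes were called higher in each control. Two-pore genes split, with 4 higher and 2 lower in P56-NSC and 3 higher and 3 lower in P0-NSC, and inward rectifiers with 7 and 2, and 6 and 3. In these families Kcnn1, Kcnk12, Kcnj9 and Kcnj14 passed the filter through P56-NSC alone, and Kcne4 and Kcnj8 through P0-NSC alone. Their calls in that group are a description. These comparisons share the AST libraries with each other and with the sphere comparison. Neuronal markers were higher against AST for 9 of 10 genes in P56-NSC and 10 of 10 in P0-NSC, and oligodendrocyte markers for 8 of 8 in P56-NSC, and their part in these counts was not tested.

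Set against the progenitors, the spheres had less of most subunits tested. Genes that passed the filter through the positive controls alone are among these counts, which are a description. Against P56-NSC 47 of the 58 genes were lower in A-iSC and 3 higher, where 31.3% and 31.5% of all genes were called (62.9% in all). Against P0-NSC 37 were lower and 6 higher, where 34.7% and 32.6% of all genes were (67.3% in all). Upward differences of 2-fold or more were called for 1 gene against P56-NSC and 2 against P0-NSC (9.16% and 13.3% of all genes), and downward ones for 33 and 24 (15.3% and 14.5%). The 3 genes higher than in P56-NSC were Kcnk10, Kcnd3 and Kcnj2, and those 3 together with Kcna6, Kcnk13 and Kcnk6 were the 6 higher than in P0-NSC. The median log2 difference of the 58 was -1.12 against P56-NSC and -0.77 against P0-NSC, while over all genes tested it was 0.03 and -0.01. With scaling by total reads 6 genes rather than 3 were higher than in P56-NSC.

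Between the positive controls, 30 of the 58 genes were called higher in P56-NSC, 14 lower and 14 neither, where 35.3% and 33.9% of all genes were called higher and lower (69.2% in all). Of the two-pore genes 6 of 7 were higher in P56-NSC, as were all 3 silent Kv genes tested, and inward rectifiers split into 6 higher and 3 lower. Among these, Kcnk12, Kcng2, Kcng4, Kcnj9 and Kcnj14 passed the filter through P56-NSC alone, and Kcnj8 through P0-NSC alone. Their calls are therefore a description. The split of all 58 depended on the scaling: by total reads, which moved the median of all genes by -0.46, it became 19 higher and 26 lower. Leaving out a P0-NSC library in turn lowered the count of lower calls to 7 (without P0-NSC 1), 9 (without P0-NSC 2) and 8 (without P0-NSC 3), with 53 genes tested. Scaling by total reads moved the median of all genes tested to 0.12 in A-iSC and -0.25 in P56-NSC against AST, to 0.17 in P0-NSC against AST, and to 0.44 in A-iSC against P56-NSC. No gene called both in the main fit and under another scaling changed its sign between them. Called genes that lost their call under a scaling were not part of that count.

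**Figure D3:**
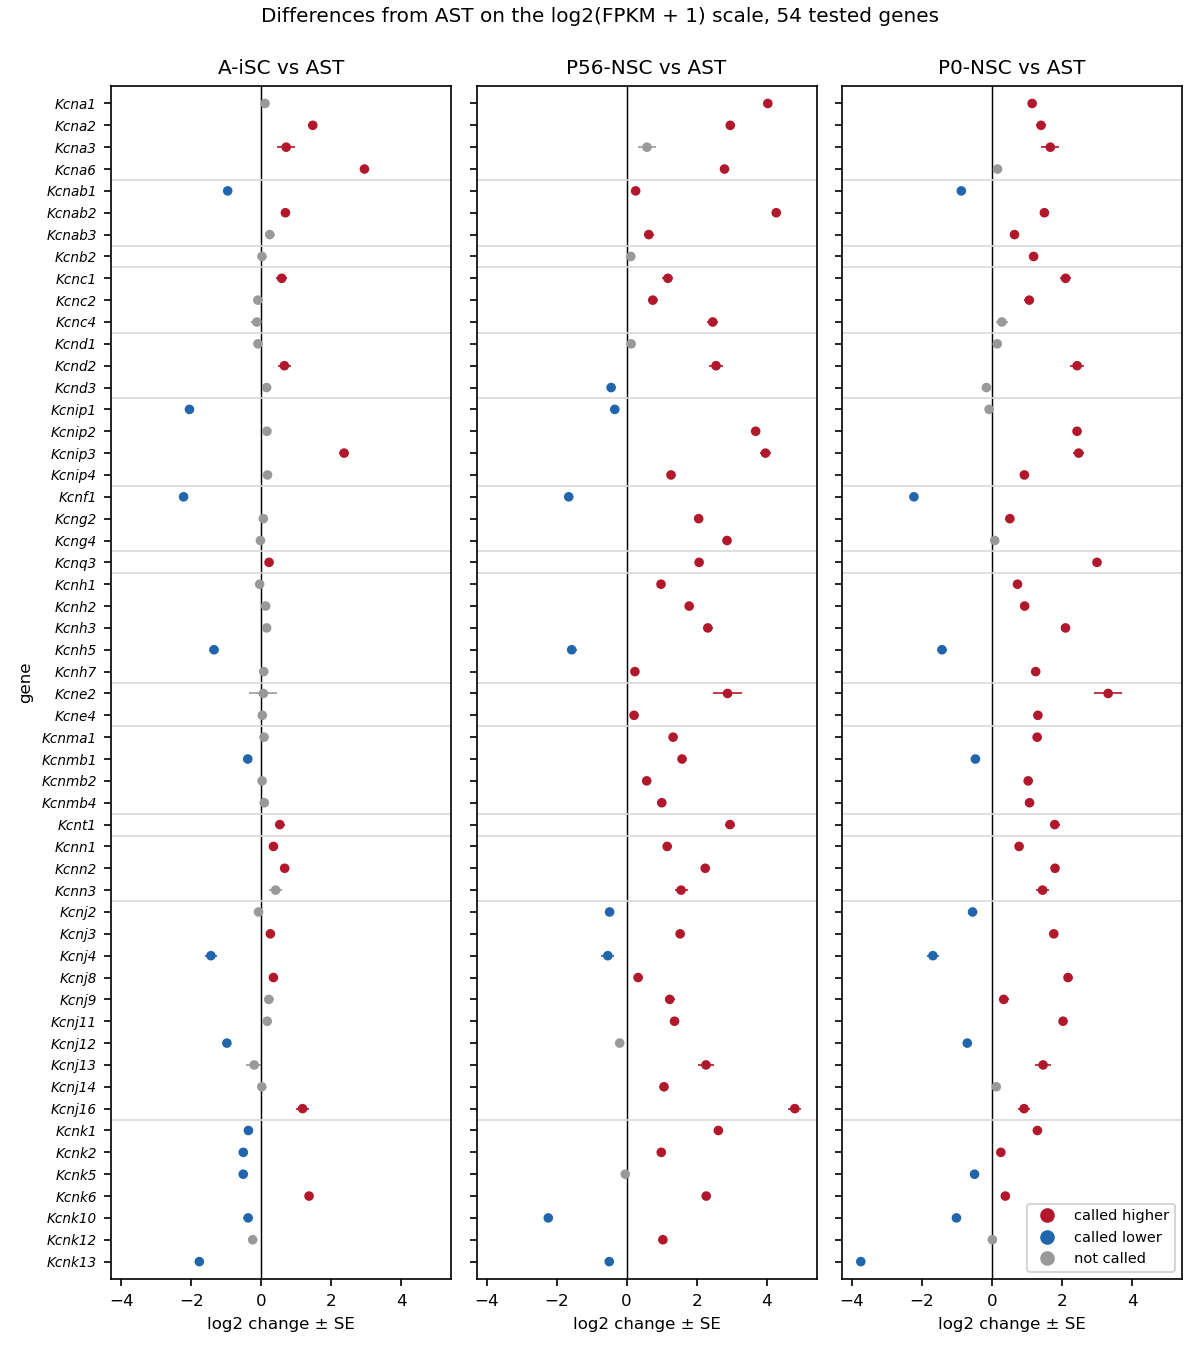
Log2 change on the log2(FPKM + 1) scale (x axis, bars are standard errors) of 54 of the 58 tested genes against AST, in A-iSC, P56-NSC and P0-NSC (3 panels); red genes were called higher, blue lower and grey neither. The A-iSC panel holds 15 red and 12 blue points, the P56-NSC panel 41 and 8, and the P0-NSC panel 36 and 10.

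Of the Kv1 subunits, low-threshold channels that limit repetitive firing, 4 of 8 were tested, and 3 rose in the spheres. Of all genes, 28.1% were called higher there and 30.8% lower. Kcna6 (Kv1.6; ENSMUSG00000038077, chromosome 6: 126708329 to 126740674) was at 1.47, 1.21 and 1.21 FPKM in AST, in A-iSC at 14.1, 18.6 and 17.8, in P56-NSC at 14.9, 14.7 and 15.2, and in P0-NSC at 1.35, 1.79 and 1.56. It was thus high in A-iSC and P56-NSC and low in AST and P0-NSC, with no overlap between these pairs of groups. It rose 12.9-fold from 1.30 ± 0.151 to 16.8 ± 2.44 FPKM (a change of 2.95 ± 0.11 log2 units, limma adjusted p = 1.54e-09). On the log2(FPKM + 1) scale this was the largest increase of the 58 genes in the spheres. Against P0-NSC the spheres were higher by 2.79 ± 0.11 (limma adjusted p = 8.89e-10), and against P56-NSC their libraries overlapped and no difference was called (0.15 ± 0.11, limma adjusted p = 0.249). That difference was called when scaled by total reads (0.67, limma adjusted p = 0.000281) and without A-iSC 1 (0.27, limma adjusted p = 0.0387). By GENCODE M21, 39.6% of its exonic bases are shared with the opposite-strand gene Gm26673, and the library kit named in the labels does not mark strand; Gm26673 itself was at 0 to 0.0719 FPKM.

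Kcna1 (Kv1.1), the subunit of axons beside the node of Ranvier, is the next Kcna gene on chromosome 6, 61944 bases from Kcna6 on the same strand, but had another pattern. It was at 0.0250, 0.0722 and 0.0338 FPKM in AST, in A-iSC at 0.0623, 0.0616 and 0.258, in P56-NSC at 17.1, 15.6 and 15.6, and in P0-NSC at 1.34, 1.55 and 1.06. Only P56-NSC was high, and AST and A-iSC overlapped near the value of a few reads. The difference of P56-NSC was 4.03 ± 0.10 log2 units against AST, a description since only the positive controls brought the gene past the filter. It was 2.89 ± 0.10 log2 units against P0-NSC (limma adjusted p = 3.6e-10), and no change was called in the spheres. Oligodendrocyte and myelin markers were high in the same 3 libraries. Kcna5, the third gene of this cluster, stayed below 1 FPKM throughout (highest value 0.784) and was not tested.

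Kcna2 (Kv1.2), which co-assembles with Kcna1 in axons, was at 0.0501, 0.0414 and 0.0950 FPKM in AST, in A-iSC at 1.75, 1.53 and 2.66, in P56-NSC at 7.02, 7.93 and 6.90, and in P0-NSC at 1.84, 2.08 and 1.53. AST was near 0 in every library and P56-NSC highest, while A-iSC and P0-NSC overlapped. In the spheres it rose by 1.47 ± 0.13 log2 units (limma adjusted p = 1.56e-06), with A-iSC 3 the highest of the 3. Its chromosome 3 neighbour Kcna3 (Kv1.3), known from lymphocytes and activated microglia, was at 0.0941, 0.0519 and 0.170 FPKM in AST, in A-iSC at 0.391, 0.464 and 1.90, in P56-NSC at 0.575, 1.02 and 0.415, and in P0-NSC at 2.41, 3.40 and 1.87. A-iSC 3 stood far above the other 2 sphere libraries, and its rise of 0.71 ± 0.25 (limma adjusted p = 0.0305) was no longer called without A-iSC 3 (0.37, limma adjusted p = 0.0948). Nor was it called without AST 1 (adjusted p = 0.0681), AST 2 (0.0761) or AST 3 (0.0521) in the same limma fit. P0-NSC was higher than P56-NSC without overlap (difference of P56-NSC -1.09 ± 0.25, limma adjusted p = 0.00235). The remaining Kv1 genes Kcna4, Kcna7 and Kcna10 were below 1 FPKM in all libraries.

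Kv beta subunits are cytoplasmic proteins that bind Kv1 channels and speed their inactivation or aid their transport, and all 3 were tested. Kcnab2 (Kv beta 2, chromosome 4: 152390742 to 152477910) was at 0.838, 0.841 and 0.764 FPKM in AST, in A-iSC at 2.24, 1.84 and 1.72, in P56-NSC at 33.5, 41.4 and 28.6, and in P0-NSC at 3.86, 4.46 and 4.06. Its order was P56-NSC, P0-NSC, A-iSC and AST, with no overlap between any neighbouring groups. The increase in the spheres was modest, 0.69 ± 0.12 log2 units (limma adjusted p = 0.000469), and the difference of P56-NSC was 4.27 ± 0.12 against AST (limma adjusted p = 3.41e-11) and 2.78 ± 0.12 against P0-NSC (limma adjusted p = 2.47e-09). Kcnab1 went the other way in the spheres. It was at 1.32, 1.13 and 1.36 FPKM in AST, in A-iSC at 0.213, 0.113 and 0.174, in P56-NSC at 1.84, 1.94 and 1.39, and in P0-NSC at 0.246, 0.227 and 0.231. AST and P56-NSC were above 1 FPKM, and A-iSC and P0-NSC below 0.25; it fell by 0.96 ± 0.09 (limma adjusted p = 2.72e-06). Kcnab3 was at 0.712 ± 0.143 FPKM in AST and 1.05 ± 0.410 in A-iSC and was not called there.

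Kv4 subunits carry the fast A-type current of dendrites, and KChIPs are calcium-binding proteins that join them. Kcnd3 (Kv4.3) varied little between the groups: it was at 8.34, 6.66 and 8.72 FPKM in AST, in A-iSC at 8.59, 7.96 and 10.1, in P56-NSC at 5.48, 5.53 and 5.53, and in P0-NSC at 6.83, 7.22 and 6.74. AST and A-iSC overlapped with no change called (0.15 ± 0.11, limma adjusted p = 0.243); the value was 0.35 when scaled by total reads (limma adjusted p = 0.0219) and -0.04 without AST 2 and A-iSC 3. A-iSC lay above P56-NSC by 0.60 ± 0.11 (limma adjusted p = 0.000391). Its difference from P0-NSC, 0.31 ± 0.11 (limma adjusted p = 0.0212), was not called without A-iSC 3 (0.23, limma adjusted p = 0.0619), without P0-NSC 1 (0.0576) or without P0-NSC 3 (0.0605), nor when scaled by total reads (0.0733). Kcnd2 (Kv4.2) was at 0.370, 0.239 and 0.439 FPKM in AST, in A-iSC at 0.828, 0.841 and 1.87, in P56-NSC at 6.95, 8.68 and 5.43, and in P0-NSC at 5.36, 7.75 and 5.90. Both positive controls were high and overlapped each other, and every A-iSC library lay above every AST library, A-iSC 3 most. It was called higher in the spheres. It was higher in P0-NSC than in AST by 2.43 ± 0.20 log2 units, a description since it passed the filter through the positive controls. Kcnd1 was at 0.756 to 1.53 FPKM over all libraries and not called in any comparison.

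Of the 4 KChIP genes, Kcnip3 and Kcnip1 moved in opposite directions in the spheres. Kcnip3, also known as DREAM, a calcium-dependent transcriptional repressor (ENSMUSG00000079056, chromosome 2: 127456498 to 127522094), was at 1.51, 2.23 and 2.22 FPKM in AST, in A-iSC at 12.3, 13.1 and 18.1, in P56-NSC at 45.4, 49.0 and 41.9, and in P0-NSC at 13.8, 17.3 and 15.5. AST was lowest, A-iSC and P0-NSC overlapped and P56-NSC was highest. It rose 7.30-fold from 1.99 ± 0.408 to 14.5 ± 3.15 FPKM (a change of 2.37 ± 0.15 log2 units, limma adjusted p = 8.7e-08), and stood 3.97 ± 0.15 above AST in P56-NSC (limma adjusted p = 2.85e-10) and 2.48 ± 0.15 in P0-NSC (limma adjusted p = 2.27e-08). Kcnip1, by contrast, was at 4.37, 3.72 and 3.76 FPKM in AST, in A-iSC at 0.197, 0.200 and 0.177, in P56-NSC at 2.66, 3.52 and 2.61, and in P0-NSC at 3.56, 3.28 and 4.21. The spheres alone were low, below every other library. It fell 20.6-fold by the group means (a change of -2.05 ± 0.11 log2 units, limma adjusted p = 2.23e-08) and differed from P0-NSC by -1.97 ± 0.11 log2 units (limma adjusted p = 1.6e-08).

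Kcnip2, the KChIP of heart and forebrain A-type channels, was at 0.0487, 0.0134 and 0 FPKM in AST, in A-iSC at 0.135, 0.137 and 0.152, in P56-NSC at 12.6, 12.7 and 11.2, and in P0-NSC at 4.40, 5.19 and 3.98. It was near 0 in AST, between 0.135 and 0.152 FPKM in the 3 sphere libraries and high in both controls, with P56-NSC above P0-NSC. The difference from AST was 3.69 ± 0.09 log2 units in P56-NSC and 2.43 ± 0.09 in P0-NSC. Both are a description since only the positive controls brought the gene past the filter, and A-iSC was not called against AST. Kcnip4 was below 0.27 FPKM in AST and A-iSC and at 0.941 to 2.01 in the controls.

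**Figure D4:**
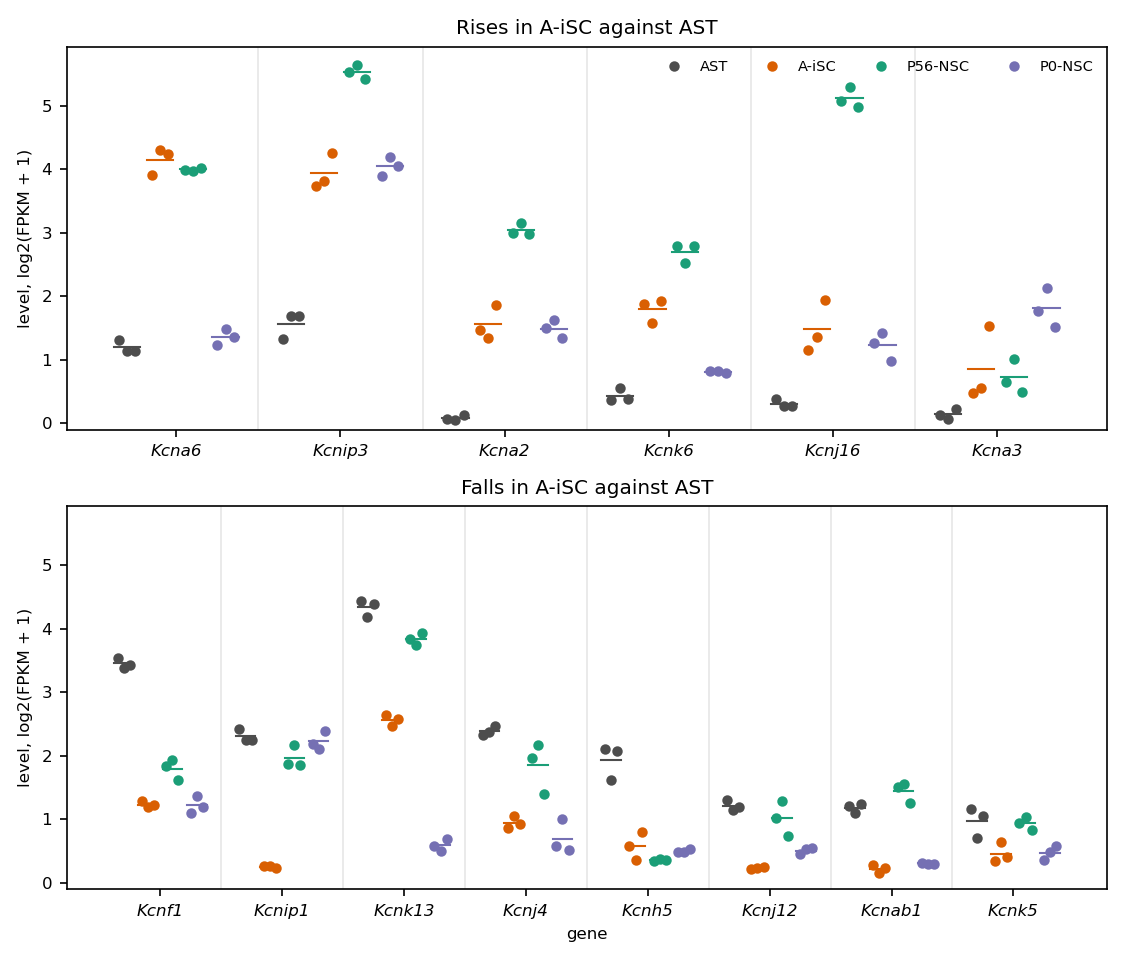
Levels of 6 genes with a large called rise and 8 with a large called fall in A-iSC against AST, in all 4 groups; each point is a library and each short line a group mean (y axis: log2(FPKM + 1)). Kcna6 and Kcnip3 are low in AST and high in A-iSC, and Kcnf1, Kcnip1 and Kcnk13 the reverse.

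Kv2 channels are the main delayed rectifiers of neuronal cell bodies. Kcnb2 passed 1 FPKM in P0-NSC only, with values of 1.31, 1.21 and 1.44 against at most 0.114 elsewhere. The 10 silent Kv subunits (Kcnf, Kcng, Kcns and Kcnv) give no current alone and modify Kv2 channels; 3 of them were tested, and in the spheres Kcnf1 fell while Kcng2 and Kcng4 were not called. Kcnf1 (Kv5.1; ENSMUSG00000051726, chromosome 12: 17172100 to 17176888) was at 10.6, 9.39 and 9.80 FPKM in AST, in A-iSC at 1.43, 1.28 and 1.32, in P56-NSC at 2.56, 2.82 and 2.07, and in P0-NSC at 1.13, 1.58 and 1.30. AST stood above all other groups without overlap, and A-iSC and P0-NSC overlapped. It fell 7.39-fold, from 9.94 ± 0.627 to 1.35 ± 0.0760 FPKM (a change of -2.22 ± 0.10 log2 units, limma adjusted p = 8.39e-09), and its difference from AST was -1.66 ± 0.10 in P56-NSC (limma adjusted p = 2.73e-08) and -2.23 ± 0.10 in P0-NSC (limma adjusted p = 2.63e-09).

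Kcng4 (Kv6.4) was above 1 FPKM in P56-NSC only: it was at 0.0157, 0.0518 and 0.0283 FPKM in AST, in A-iSC at 0.0130, 0 and 0.0294, in P56-NSC at 6.72, 6.63 and 6.25, and in P0-NSC at 0.0115, 0.0722 and 0.191. Every P56-NSC library was above 6 FPKM and every other one below 0.2, a difference from P0-NSC of 2.79 ± 0.08 log2 units, given as a description because only P56-NSC brought it past the filter. Kcng2 was likewise at 2.83 to 3.70 FPKM in P56-NSC and at most 0.735 elsewhere. Kcns3, not tested, lay at 0.691 to 0.931 FPKM in AST and A-iSC and at 0.221 to 0.271 in P0-NSC.

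Kv3 channels close fast and let neurons fire at high rates. Kcnc4 was at 0.528, 0.321 and 0.449 FPKM in AST, in A-iSC at 0.284, 0.373 and 0.272, in P56-NSC at 7.01, 8.80 and 5.20, and in P0-NSC at 0.501, 1.11 and 0.662. P56-NSC alone was high, with a spread between 5.20 and 8.80, and no change was called in the spheres. Kcnc1 rose from 0.524 ± 0.130 to 1.31 ± 0.443 FPKM in the spheres (a change of 0.58 ± 0.16 log2 units, limma adjusted p = 0.00772) and was highest in P0-NSC (5.54 ± 0.183). Its rise was not called with quantile normalization (0.33, limma adjusted p = 0.118). Kcnc2 was called higher in both controls than in AST, at 2.13 ± 0.224 FPKM in P0-NSC, and was not called in the spheres.

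Kv7 subunits carry slow currents that act as a brake on excitability. Kcnq3 was at 0.0162, 0.0235 and 0.0329 FPKM in AST, in A-iSC at 0.111, 0.183 and 0.297, in P56-NSC at 3.11, 3.69 and 3.12, and in P0-NSC at 7.28, 7.35 and 6.96. All P0-NSC libraries lay above those of P56-NSC, and the difference of P0-NSC from AST was 3.00 ± 0.09 log2 units. AST and A-iSC were below 0.3 FPKM throughout. The spheres were lower than P0-NSC, with a difference of -2.78 ± 0.09 log2 units. Both differences are a description since only the positive controls brought Kcnq3 past the filter.

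Of the EAG, ERG and ELK subunits, 5 of 8 were tested. Kcnh5 (EAG2) was the one gene of the 58 to reach 1 FPKM in AST alone: it was at 3.31, 2.05 and 3.20 FPKM in AST, in A-iSC at 0.489, 0.280 and 0.745, in P56-NSC at 0.270, 0.292 and 0.284, and in P0-NSC at 0.399, 0.398 and 0.447. Each AST library lay above the other 9 libraries. Since only AST brought it past the filter, its differences from AST are a description, -1.35 ± 0.14 in the spheres and -1.57 ± 0.14 in P56-NSC on the log2 scale. Kcnh2 (ERG1), which repolarises the heart, was at 1.17, 1.07 and 1.18 FPKM in AST, in A-iSC at 1.19, 1.46 and 1.36, in P56-NSC at 6.37, 6.88 and 5.91, and in P0-NSC at 3.33, 2.97 and 2.95. P56-NSC lay above P0-NSC, and both above AST and A-iSC. In the spheres it was not called (0.12 ± 0.09, limma adjusted p = 0.233), except when scaled by total reads (0.25, limma adjusted p = 0.0370); quantile normalization gave -0.05. Kcnh3 (ELK2), a forebrain channel, was at 0.0104, 0.0257 and 0.0187 FPKM in AST, in A-iSC at 0.0948, 0.153 and 0.149, in P56-NSC at 3.68, 5.09 and 3.60, and in P0-NSC at 2.70, 4.30 and 3.24. The spheres were lower than P0-NSC (difference -1.95 ± 0.14 log2 units), and the controls overlapped. That difference is a description since only the positive controls brought Kcnh3 past the filter.

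Inward rectifiers pass potassium inward more easily than outward and hold the membrane near the potassium equilibrium. Of 14 genes 10 were tested, and in the spheres 3 rose, 2 fell and 5 were not called. Of all genes, 28.1% were called higher there and 30.8% lower, so that the 3 that rose lie near that background. Kcnj16 (Kir5.1; ENSMUSG00000051497, chromosome 11: 110968033 to 111027968), which makes pH-sensitive channels with another rectifier subunit, was at 0.303, 0.213 and 0.205 FPKM in AST, in A-iSC at 1.24, 1.57 and 2.86, in P56-NSC at 32.6, 38.3 and 30.4, and in P0-NSC at 1.41, 1.68 and 0.978. P56-NSC stood far above all other groups, A-iSC overlapped P0-NSC, and AST was lowest. It rose by 1.18 ± 0.18 in the spheres (limma adjusted p = 0.000159), while the difference of P56-NSC from AST, 4.80 ± 0.18 (limma adjusted p = 3.1e-10), was the largest of the 58 genes over the comparisons made on the log2(FPKM + 1) scale. The 7 astrocyte markers summed to 116 to 133 FPKM in AST, 1146 to 2396 in A-iSC, 2787 to 3015 in P56-NSC and 224 to 288 in P0-NSC. Against AST 6 of 7 were called higher and 0 lower in A-iSC, 7 of 7 higher in P56-NSC, and 4 higher and 3 lower in P0-NSC. Of all genes, 28.1%, 37.1% and 35.9% were called higher in these groups, and 30.8%, 37% and 38.3% lower. The part of the astrocyte markers in the result was not tested.

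Kcnj2 (Kir2.1) lies 38195 bases from Kcnj16 on the same strand of chromosome 11 and did not share its pattern. It was at 1.51, 1.44 and 1.29 FPKM in AST, in A-iSC at 1.38, 1.23 and 1.25, in P56-NSC at 0.709, 0.629 and 0.825, and in P0-NSC at 0.683, 0.612 and 0.627. AST and A-iSC overlapped and both lay above the controls; A-iSC exceeded P56-NSC by 0.41 ± 0.08 (limma adjusted p = 0.000604) and P0-NSC by 0.48 ± 0.08 (limma adjusted p = 0.000162). Kcnj4 and Kcnj12, which like Kcnj2 rectify strongly, fell in the spheres. Kcnj4 (Kir2.3) was at 4.02, 4.15 and 4.50 FPKM in AST, in A-iSC at 0.807, 1.07 and 0.901, in P56-NSC at 2.92, 3.50 and 1.64, and in P0-NSC at 0.487, 1.01 and 0.422. It fell by 1.44 ± 0.18 (limma adjusted p = 3.18e-05), and was lower in P0-NSC than in AST (difference -1.69 ± 0.18, limma adjusted p = 4.14e-06). AST lay above P56-NSC, and P56-NSC above the rest. Its lower level in P56-NSC, -0.54 ± 0.18 (limma adjusted p = 0.0188), was not called without AST 3 (-0.50, limma adjusted p = 0.0553) or without P56-NSC 3 (-0.31, limma adjusted p = 0.0816). Kcnj12 (Kir2.2) was at 1.45, 1.22 and 1.29 FPKM in AST, in A-iSC at 0.162, 0.168 and 0.190, in P56-NSC at 1.03, 1.45 and 0.662, and in P0-NSC at 0.366, 0.437 and 0.462. It was above 1 FPKM in all AST libraries and below 0.2 in all sphere libraries, and fell by 0.98 ± 0.12 (limma adjusted p = 2.16e-05).

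The pore subunits of ATP-sensitive channels, which close when the cell has ample ATP and need a sulfonylurea receptor as partner, were both highest in P0-NSC. Kcnj8 (Kir6.1) was at 0.0468, 0 and 0 FPKM in AST, in A-iSC at 0.136, 0.264 and 0.498, in P56-NSC at 0.113, 0.367 and 0.357, and in P0-NSC at 3.98, 3.90 and 2.94. All P0-NSC libraries were above 2.9 FPKM and all others below 0.5, a difference of P56-NSC from P0-NSC of -1.85 ± 0.13 log2 units, a description since only P0-NSC brought it past the filter. Its partner Abcc9 was at 4.41, 3.17 and 4.29 FPKM in P0-NSC and at most 0.124 elsewhere. Rgs5, a pericyte marker, was at 35.4 to 42.8 FPKM in P0-NSC and at most 2.55 elsewhere. The 7 mural and fibroblast markers as a list were mixed in P0-NSC against AST. There 3 were called higher and 3 lower (35.9% and 38.3% of all genes), with Acta2 lower by 8.88 ± 0.39 log2 units. The part of these markers in the result was not tested. Kcnj11 (Kir6.2) was at 1.17 to 1.98 FPKM in P56-NSC and 2.92 to 3.53 in P0-NSC, and its partner Abcc8 was at 0.075 to 0.177 and 2.07 to 2.65. The G protein-gated rectifiers Kcnj3 and Kcnj9 were below 0.31 FPKM in AST and A-iSC. Kcnj3 was at 1.73 to 2.23 FPKM in P56-NSC and 2.34 to 2.53 in P0-NSC. Kcnj9 was at 1.08 to 2.27 in P56-NSC but only 0.262 to 0.409 in P0-NSC. The level of Kcnj3 is uncertain, since 31.1% of its exonic bases are shared with the opposite-strand gene Gm26794.

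Two-pore domain channels give the background leak that sets the resting potential. Of 14 genes 7 were tested, and in the spheres 5 fell and 1 rose, where 30.8% of all genes were called lower and 28.1% higher. Kcnk13 (THIK1; ENSMUSG00000045404, chromosome 12: 99964499 to 100062682), a channel also known from microglia, was at 20.7, 17.2 and 19.9 FPKM in AST, in A-iSC at 5.26, 4.55 and 4.97, in P56-NSC at 13.3, 12.4 and 14.3, and in P0-NSC at 0.492, 0.408 and 0.618. AST was highest, P56-NSC next, A-iSC lower and P0-NSC lowest, with no overlap between neighbours. It fell 3.91-fold from 19.3 ± 1.81 to 4.93 ± 0.355 FPKM (a change of -1.77 ± 0.10 log2 units, limma adjusted p = 2.83e-08). In the same libraries 8 of 8 microglia markers were called higher, and their part in the result was not tested. The difference from AST was -0.50 ± 0.10 in P56-NSC (limma adjusted p = 0.000574) and -3.75 ± 0.10 in P0-NSC (limma adjusted p = 3.06e-11).

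Kcnk10 (TREK2), a stretch- and lipid-gated channel, was at 6.47, 5.89 and 6.41 FPKM in AST, in A-iSC at 3.86, 4.38 and 5.67, in P56-NSC at 0.473, 0.689 and 0.457, and in P0-NSC at 2.63, 3.11 and 2.09. AST was highest without overlap, and P56-NSC lowest. Its decrease in the spheres was small (-0.38 ± 0.13, limma adjusted p = 0.0298), whereas A-iSC exceeded P56-NSC by 1.86 ± 0.13 (limma adjusted p = 1.52e-07) and P0-NSC by 0.64 ± 0.13 (limma adjusted p = 0.00114). The decrease was not called without AST 1, AST 3, A-iSC 1 or A-iSC 2 (limma adjusted p 0.0760 to 0.118), nor when scaled by total reads (-0.20, adjusted p = 0.264). Kcnk2 (TREK1), its close relative, was at 10.7, 12.1 and 10.7 FPKM in AST, in A-iSC at 8.23, 6.53 and 7.80, in P56-NSC at 22.2, 22.8 and 24.3, and in P0-NSC at 13.3, 13.6 and 13.5. It also fell in the spheres (-0.51 ± 0.09, limma adjusted p = 0.000439), but was highest in P56-NSC. Kcnk1 (TWIK1), a channel strongly expressed in mature astrocytes, was at 7.12, 6.69 and 6.55 FPKM in AST, in A-iSC at 4.53, 5.53 and 5.07, in P56-NSC at 46.0, 46.5 and 48.1, and in P0-NSC at 18.9, 16.3 and 19.3. The spheres were lowest, below AST (difference -0.37 ± 0.09, limma adjusted p = 0.00389; when scaled by total reads -0.18, adjusted p = 0.121) and below P56-NSC (difference -2.99 ± 0.09, limma adjusted p = 8.5e-11).

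Kcnk6 (TWIK2), which like Kcnk1 has a leucine codon in the second pore, though another one (CTA against CTG), moved the other way. It was at 0.287, 0.463 and 0.298 FPKM in AST, in A-iSC at 2.67, 2.0 and 2.80, in P56-NSC at 5.91, 4.76 and 5.95, and in P0-NSC at 0.769, 0.761 and 0.735. It rose by 1.36 ± 0.11 in the spheres (limma adjusted p = 7.83e-07) and exceeded P0-NSC by 0.98 ± 0.11 (limma adjusted p = 8.36e-06). Kcnk5 (TASK2), opened by alkaline pH, was at 1.23, 0.637 and 1.08 FPKM in AST, in A-iSC at 0.262, 0.556 and 0.318, in P56-NSC at 0.914, 1.04 and 0.785, and in P0-NSC at 0.283, 0.404 and 0.491. AST 1 and AST 3 stood above AST 2, all 3 above the spheres, and it fell by 0.52 ± 0.13 (limma adjusted p = 0.00391). Kcnk3, not tested, was at 0.0900 to 0.149 FPKM in AST, 0.549 to 0.816 in A-iSC and 0.855 to 2.08 in P56-NSC.

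Calcium- and sodium-activated channels were low in AST and A-iSC. Kcnn2 (SK2), which carries part of the afterhyperpolarisation, was at 0.248, 0.145 and 0.245 FPKM in AST, in A-iSC at 0.957, 0.783 and 1.04, in P56-NSC at 4.50, 5.46 and 4.32, and in P0-NSC at 3.04, 3.21 and 3.43. It rose in the spheres by 0.67 ± 0.10 (limma adjusted p = 9.33e-05), and both controls were higher still, without overlap. Kcnt1 (Slack), opened by internal sodium, was at 0.0628, 0.0363 and 0.0227 FPKM in AST, in A-iSC at 0.533, 0.788 and 0.232, in P56-NSC at 6.84, 7.15 and 7.22, and in P0-NSC at 2.34, 3.49 and 2.12. The spheres lay above AST (0.53 ± 0.15, limma adjusted p = 0.00932) and P56-NSC was highest. That rise was not called when AST 3 and AST 1 were set against A-iSC 3 alone (0.24, limma adjusted p = 0.320). Kcnma1, the pore of the BK channel, was below 0.12 FPKM in AST and A-iSC and at 1.16 to 2.02 in the controls. Kcnmb1, its smooth muscle beta subunit, was at 0.470, 0.494 and 0.630 FPKM in AST, in A-iSC at 0.142, 0.130 and 0.240, in P56-NSC at 3.60, 3.52 and 3.62, and in P0-NSC at 0.125, 0.0738 and 0.104. P56-NSC alone was above 1 FPKM, and Kcnmb1 was among the 12 genes called lower in the spheres. It lies within Kcnip1 on the opposite strand of chromosome 11, and Kcnip1 in the same P56-NSC libraries was at 2.61 to 3.52 FPKM. These genes share no exonic base in GENCODE M21.

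The remaining tested genes were low in AST and A-iSC as well. Kcnn1 (SK1) was at 0.0538 to 0.130 FPKM in AST and 0.216 to 0.561 in A-iSC and was called higher there, and Kcnn3 (SK3) was at 0.50 to 0.719 and 0.717 to 2.10 and was not called. Kcnmb2, a BK beta subunit that inactivates the channel, was listed at 0 in all AST libraries and at 1.01 to 1.09 FPKM in P0-NSC. Kcnmb4, the neuronal BK beta subunit, was at 1.22 to 1.53 FPKM in P0-NSC, where Kcnmb4os2, an opposite-strand gene that overlaps it, was at 3.39 to 3.64; 31.5% of the exonic bases of Kcnmb4 are shared with such genes, so its level is uncertain. Kcnh7 (ERG3) was above 1 FPKM in P0-NSC alone (1.64 to 1.83), and Kcnk12 (THIK2), the closest relative of Kcnk13, and Kcnj14 in P56-NSC alone (1.81 to 2.19 and 1.12 to 1.48). Of the genes not tested, Kcnt2, Kcnu1, Kcnh4, Kcns1 and Kcnk9 passed 1 FPKM in at least 1 P0-NSC library, with maxima of 1.39, 1.29, 1.27, 1.28 and 1.10. Kcnq5, another neuronal Kv7 gene, stayed between 0.361 and 0.861 FPKM in all libraries, unlike Kcnq3. Kcnn4, the intermediate-conductance channel of blood and microglial cells, was at 0.682 to 0.924 FPKM in P56-NSC and at most 0.370 elsewhere.

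Kcne subunits are small single-span proteins that modulate Kv channels, and 2 of 4 were tested. Kcne2, found at the apical membrane of choroid plexus and in heart and stomach, was at 0, 0.195 and 0.152 FPKM in AST, in A-iSC at 0.337, 0.119 and 0.0422, in P56-NSC at 7.30, 4.55 and 11.0, and in P0-NSC at 21.0, 4.53 and 10.2. AST and A-iSC were near 0, and the controls spread widely, from 4.53 to 21.0 FPKM in P0-NSC. Its difference from AST was 3.32 ± 0.40 log2 units in P0-NSC, and the spheres were lower than P0-NSC (difference -3.26 ± 0.40). Both are a description since only the positive controls brought Kcne2 past the filter. Ttr, the main choroid plexus transcript, was at 3747, 725 and 2265 FPKM in the P0-NSC libraries and 2077, 1452 and 3120 in P56-NSC. Kcne2, Ttr, Folr1 and Clic6 had the same order of libraries in each control group, P0-NSC 1 highest and P0-NSC 2 lowest, and P56-NSC 3 highest and P56-NSC 2 lowest. Kcnj13 (Kir7.1), the rectifier of choroid plexus, also had that order, at 3.58, 1.24 and 2.20 FPKM in P0-NSC and 4.76, 3.29 and 6.12 in P56-NSC. Of its exonic bases 49.1% are shared with the opposite-strand gene Gigyf2, which was at 2.97 to 5.32 FPKM over all libraries, while Kcnj13 was at most 0.233 in AST and A-iSC. The 5 choroid plexus markers summed to 4.19 to 6.60 FPKM in AST and A-iSC. The library order of the listed markers Kl and Otx2 is not given here. Between the controls 1 of the 5, Kl, was called higher in P56-NSC (2.72 ± 0.16 log2 units, limma adjusted p = 3.13e-08) and 0 lower. Of all genes, 35.3% and 33.9% were. In every P0-NSC library 1 of the 5 was below 1 FPKM. The part of choroid plexus cells in these results was not tested. Kcne4 was at 0.0224, 0.0557 and 0.0608 FPKM in AST, in A-iSC at 0.112, 0.0791 and 0.0140, in P56-NSC at 0.152, 0.281 and 0.206, and in P0-NSC at 1.32, 1.72 and 1.78. It was above 1 FPKM in P0-NSC alone, the group that brought it past the filter, and the difference of P56-NSC from it, -1.10 ± 0.09 log2 units, is a description.

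**Figure D5:**
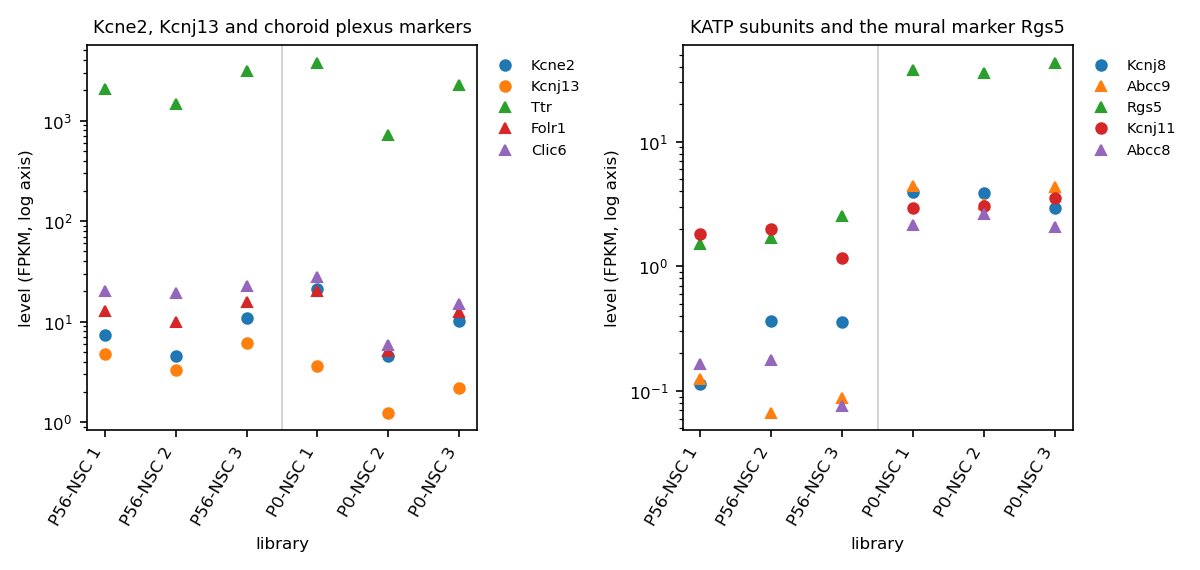
FPKM (log axis) of Kcne2 and Kcnj13 with the choroid plexus markers Ttr, Folr1 and Clic6, and of Kcnj8 and Kcnj11 with their partners Abcc9 and Abcc8 and the pericyte marker Rgs5, in the 3 libraries of P56-NSC and of P0-NSC; circles are channel genes, triangles markers and partners. Kcne2 and Kcnj13 are lowest in P56-NSC 2 and P0-NSC 2, as is Ttr, and Kcnj8, Abcc9 and Rgs5 are high in P0-NSC.

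Other genes that handle potassium were read from lists of 14 pumps and cotransporters, 16 channel partner proteins and 4 HCN channels. In the spheres 8 of 14 tested pump and cotransporter genes were called higher and 4 lower, where 28.1% and 30.8% of all genes were. Atp1b2, a beta subunit of the sodium pump, was at 12.1 to 14.0 FPKM in AST and 158 to 197 in A-iSC, a rise of 3.67 ± 0.11 log2 units (limma adjusted p = 5.31e-10), and Fxyd1, which tunes the pump, rose by 3.23 ± 0.29 log2 units (limma adjusted p = 1.76e-06). Against P56-NSC the spheres were lower for 7 of these 14 genes and higher for 4, where 31.3% and 31.5% of all genes were, so that the 4 higher lie near that background. Slc12a5, the neuronal chloride extruder, was at 0.265 to 0.808 FPKM in A-iSC and 13.2 to 18.3 in P56-NSC. The difference of -3.37 ± 0.19 log2 units is a description since only the positive controls brought it past the filter.

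Among channel partners 12 of 16 were tested. In the spheres 3 were called higher and 1 lower, where 28.1% and 30.8% of all genes were, so that the 3 higher lie near that background. Against AST 10 were higher and 0 lower in P56-NSC (37.1% and 37% of all genes), and 11 higher and 1 lower in P0-NSC (35.9% and 38.3%). Amigo1, a membrane partner of Kv2 channels, was at 1.78 to 2.11 FPKM in AST and 6.27 to 6.96 in A-iSC, a rise of 1.39 ± 0.10 log2 units (limma adjusted p = 1.87e-07). Cntn2, which clusters Kv1 channels on axons, was at most 0.127 FPKM in AST and A-iSC and at 43.3 to 44.9 in P56-NSC and 80.7 to 100.3 in P0-NSC. Dpp6, a Kv4 partner, was at 0.164 to 0.174 FPKM in AST, 0.498 to 0.770 in A-iSC and 4.57 to 5.99 in the controls. Of the 4 HCN channels, Hcn3 was called higher in the spheres, by 0.82 ± 0.13 log2 units (limma adjusted p = 0.00024), and all 4 were higher in each control than in AST. Hcn2 was at 63.0 to 70.1 FPKM in P56-NSC, 5.17 to 7.64 in P0-NSC and 1.50 to 2.44 in AST and A-iSC.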

How the data were processed

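RNA was measured by sequencing in 12 libraries of 4 groups of 3. Per the labels' protocols, 3 µg of total RNA per sample, extracted with Trizol, was made into libraries with the NEBNext Ultra RNA kit. The authors deposited 1 table of FPKM per gene (fragment counts scaled for gene length and library size), with gene lengths and coordinates. Bowtie 0.12.2, mm8 and mm9 are listed in the submitters' processing notes, with no role given. In the deposited table, however, 99.5% of the 55154 gene entries shared with GENCODE M21 have its GRCm38 coordinates, and coordinates here are GRCm38. The counting method is likewise not given in the sources used here. FPKM times gene length gave whole reads (100% of values within 0.01 of a whole number), and the factor that scaled a library differed from its total reads by ratios of 0.744 to 1.218. Nameless entries (0.0957% to 0.156% of reads) were left out. No deposited column of sample values went unused (0 columns).

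The 15747 genes that reached 1 FPKM in 3 libraries or more were tested on log2(FPKM + 1) with limma 3.58.1 (R 4.3.3, trended empirical Bayes) in 1 fit of all 12 libraries and 6 comparisons, with Benjamini-Hochberg adjustment over all genes tested. Fold changes on this scale understate the change of low genes. The procedure was first tested on simulated data, drawn with the same spread setting for all genes and no deviation with gene length. They do not cover the library deviations seen here. A gene was called at an adjusted p below 0.05. Alternatives were scaling by total reads, quantile normalization, other filters and pseudocounts, voom on the recovered reads, fits of 2 groups, a replicate block and leaving libraries out. The main fit did not pair the samples by replicate number. Correlations of deviations between same-numbered AST and A-iSC libraries were -0.395, 0.342 and 0.442. These libraries also deviated with gene length, so the correlations cannot decide whether the samples were paired. The selectivity filter was searched in the longest coding sequence of each gene in GENCODE M21.

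Genes were named by rule as the 8 largest called changes in each direction between A-iSC and AST, the 6 largest in the other comparisons and the highest gene of each family. Other genes were named after their values were seen. The members and lists were chosen with earlier results of these data known. A gene of the same name pattern was left out, and some other genes that the rule names, counted in the totals, are not reported here.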

Additional observations from a re-analysis of the deposited data

How the results depend on the processing

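Of 83 pairs of a gene and a comparison that were followed, 73 kept their direction and side of the threshold in every alternative that tested the gene (17 to 23 alternatives). Most of these pairs were chosen for the size of their called change in the main fit. Their stability therefore says little about the other genes. Called values lost their call under at least 1 alternative for 7 pairs, and none of these changed sign. Of the uncalled values, Kcnd3 in A-iSC against AST became -0.039 without AST 2 and A-iSC 3 together, and Kcnh2 there became -0.050 with quantile normalization. Genes called higher in A-iSC than in AST numbered 17, but 10 with quantile normalization, 26 with voom on recovered reads, 8 when only these groups were fitted and 22 genes tested, and 11 without AST 2 and A-iSC 3 together. Genes lower in P56-NSC than in AST numbered 8, and 5 without AST 1, AST 3 and A-iSC 3 together. Scaled by total reads, 6 rather than 3 genes were higher in A-iSC than in P56-NSC, and between P56-NSC and P0-NSC 19 rather than 30 were higher and 26 rather than 14 lower. In that last comparison 22 were lower with a filter of 0.1 FPKM (81 tested). Apart from the fewer genes tested in some of these, the cause was not tested.

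With each library left out in turn, the count of higher genes ranged from 12 to 18 in A-iSC against AST, 35 to 46 in P56-NSC against AST, 33 to 39 in P0-NSC against AST, 3 to 4 in A-iSC against P56-NSC, 5 to 6 in A-iSC against P0-NSC and 21 to 30 in P56-NSC against P0-NSC. In the same order the count of lower genes ranged from 9 to 12, 6 to 9, 8 to 10, 36 to 47, 30 to 38 and 7 to 14. With the replicate block, A-iSC against AST gave 15 higher and 12 lower, P56-NSC against P0-NSC 29 and 14, and the other counts moved by at most 2. At 1 read per kilobase worth 0.0343 to 0.0623 FPKM, levels below about 0.1 FPKM rest on few reads in short genes.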
